A study of Saccharomyces cerevisiae with 18 samples.

Results

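Peroxisomes are the only site of fatty acid beta-oxidation in yeast, and 45 genes of this organelle and of the carnitine shuttle that serves it were followed across alleles of the transcription factor Yrr1 and across media. They were taken by name from the gene table, as the 26 loci named PEX followed by a number and 19 further genes chosen by name for beta-oxidation, its cofactors, carnitine transfer or its regulation. The 45 are part of 6713 loci with counts, and all 45 were among the 5766 loci that passed the filter on low counts. Every library came from the haploid strain S96, a derivative of the laboratory strain S288c, in which the chromosomal YRR1 coding region was replaced by a hygromycin resistance gene. Each strain carried one YRR1 allele on a plasmid kept with G418 and driven by the gene's own promoter. Yrr1S is the S96 allele, Yrr1Y is the allele of the clinical isolate YJM789, and Yrr1IE is the S96 allele with a single residue changed to glutamic acid to mimic phosphorylation. Yeast expressing each allele were grown in rich glucose medium (YPD), in YPD with 0.25 µg/ml of the mutagen 4-nitroquinoline-1-oxide (4NQO) for 2.5 h, or after a wash in glycerol, and 2 libraries were made for each of the 9 conditions. Carbon source, time and the wash differed together between glycerol and YPD, so their parts in a glycerol response cannot be told apart.

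Fatty acids enter the peroxisome as acyl-CoA through an ABC transporter or are activated inside it, and a cycle of oxidase, multifunctional enzyme and thiolase then removes acetyl-CoA units. Acetyl groups leave as carnitine esters or as glyoxylate cycle products, and shuttles return NADH and NADPH equivalents. The enzymes reach the matrix through the peroxins, which bind targeting signals, dock at the membrane, recycle the receptors by ubiquitination and shape the organelle. In S. cerevisiae many of these genes are repressed by glucose, and are induced by oleate through the heterodimer of Oaf1 and Pip2, which binds the oleate response element, together with Adr1.

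Total counts ranged from 1475372 to 2826771 per library. Libraries S1 and S2 are Yrr1Y, S3 and S4 Yrr1S, and S5 and S6 Yrr1IE in YPD, S7 to S12 are the same alleles in that order in 4NQO, and S13 to S18 in glycerol. Each strain was grown as 2 replicate cultures, and the YPD and 4NQO libraries came from subcultures of the same parent cultures. The labels do not tell which YPD and 4NQO libraries share a parent, and the tests treated them as independent. The labels and the study's methods differ on whether the glycerol cultures came from the same parents. In such bulk samples fewer cells with an mRNA cannot be told from less mRNA per cell. Counts of SNF1, the kinase needed to lift glucose repression, were near 0 with one allele only. In YPD they were 231 and 297 with Yrr1S, 244 and 207 with Yrr1Y and 0 and 0 with Yrr1IE. In 4NQO they were 220 and 273 with Yrr1S, 179 and 219 with Yrr1Y and 0 and 2 with Yrr1IE, and in glycerol they were 225 and 232 with Yrr1S, 249 and 226 with Yrr1Y and 1 and 0 with Yrr1IE. All 6 Yrr1IE libraries thus held 2 SNF1 reads or fewer, where the other 12 held 179 to 297. YRR1 counts in YPD were 235 and 308 with Yrr1S, 138 and 171 with Yrr1Y and 93 and 126 with Yrr1IE. They were 333 and 397 with Yrr1S, 221 and 244 with Yrr1Y and 124 and 89 with Yrr1IE in 4NQO, and 468 and 570 with Yrr1S, 373 and 425 with Yrr1Y and 199 and 190 with Yrr1IE in glycerol, lowest with Yrr1IE in each medium. The Yrr1IE allele and the missing SNF1 reads cannot be told apart in any comparison of Yrr1IE with another allele below. The Yrr1IE glycerol libraries also stood apart across all loci. Their log CPM correlated at 0.962 with each other and at no more than 0.887 with a library of another condition, where replicates of the other conditions correlated at 0.971 to 0.984.

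The oleate response element was looked for first, because it is the sequence through which Oaf1 and Pip2 are known to act. The pattern searched was CGGNNNTNA, then 9 to 12 bases of any kind, then CCG, on both strands of the 500 bases before each start codon, neighbouring genes included, in the RefSeq R64 genome, whose positions equal those of the gene table for all 45 members. It was found before 18 of the 45 genes (40.0%), against 113 of 6022 loci with such a window (1.88%). Among the 19 enzymes, carriers and regulators 14 held it (73.7%), and among the 26 PEX genes 4 did (15.4%), PEX5, PEX6, PEX11 and PEX13. These shares are a description and not a test, since many of the genes chosen are known to be induced through this element. The 20 matching windows lay 108 to 320 bases before the start codon, and POX1 and FOX2 held 2 each. The matches of the genes that the responses below turn on are shown, with the fixed letters of the pattern in capitals and each read 5′ to 3′ on the strand given.
POX1 near (chrVII:107883-107905, plus): CGGtcaTtAgcggctaatagCCG
POX1 far (chrVII:107846-107868, minus): CGGagtTtAatcaactaataCCG
FOX2 near (chrXI:457305-457325, plus): CGGcgtTaAcaaatttccCCG
FOX2 far (chrXI:457337-457358, plus): CGGactTaAaactaggcttCCG
POT1 (chrIX:41610-41632, plus): CGGtgtTaAtactattatccCCG
FAA2 (chrV:184355-184377, minus): CGGcgtTaAagactgacggtCCG
PXA2 (chrXI:89035-89058, minus): CGGcgtTaAttacaactatcaCCG
ECI1 (chrXII:707191-707213, minus): CGGgcaTaAgaaatattattCCG
SPS19 (chrXIV:259412-259435, plus): CGGcgtTaAgtatatcaaactCCG
IDP3 (chrXIV:614509-614531, minus): CGGcatTaAgcatgctaaatCCG
CRC1 (chrXV:514584-514606, plus): CGGataTtAggagcagtaacCCG
YAT1 (chrI:190027-190048, minus): CGGggaTgAccgcggaccgCCG
PEX11 (chrXV:48756-48778, minus): CGGcatTtAtctcggagaacCCG
PIP2 (chrXV:1023348-1023368, plus): CGGagaTtAtatttagttCCG
The windows of POT1 and PIP2, the near window of POX1 and the window of DCI1 also matched on the other strand. MDH3, TES1, DCI1, PEX5, PEX6 and PEX13 hold the remaining matches. No match was found before OAF1, PXA1, ANT1, CAT2 or YAT2 in this window. A match is a description of letters, and it does not show that a factor binds there.

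**Figure D1:**
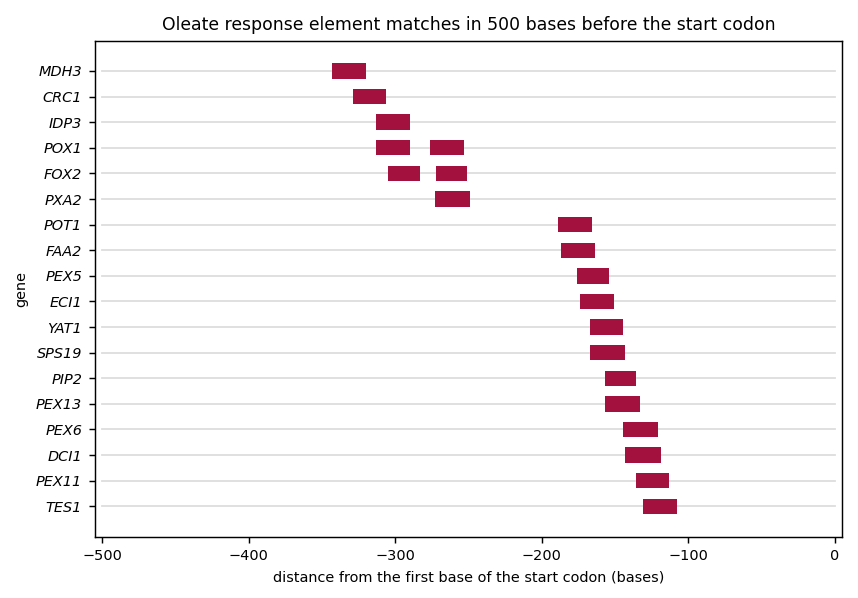
Position of each match of the oleate response element in the 500 bases before the start codon of 18 genes (x axis, distance in bases from the first base of the start codon; filled bars, matches). The matches lie 108 to 320 bases before the start codon, and POX1 and FOX2 hold 2 each.

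Most of these genes rose in glycerol in yeast expressing Yrr1S or Yrr1Y, and the enzymes and carnitine genes had the largest changes. With Yrr1S 36 of 45 were higher than in YPD and 1 was lower (edgeR quasi-likelihood test across all loci, adjusted p under 0.05), where 57.7% of all loci tested were called, 29.1% as higher and 28.6% as lower. With Yrr1Y 34 were higher and 1 lower, where 55.6% of all loci were called, 28.5% as higher and 27% as lower. With Yrr1IE 28 were higher and 4 lower, where 65.5% of all loci were called, 33.2% as higher and 32.3% as lower. The median log2 fold change of the 45 was 1.37 with Yrr1S, 1.05 with Yrr1Y and 0.87 with Yrr1IE, while that of all loci was 0.04, 0.04 and 0.03. The 19 enzymes, carriers and regulators were all higher in glycerol with Yrr1S, at a median of 4.06, and all higher with Yrr1Y, at a median of 3.28. With Yrr1IE 15 of the 19 were higher and ANT1 was lower, at a median of 1.07. The 26 PEX genes moved less, with 17 higher and 1 lower with Yrr1S at a median of 0.83, 15 higher and 1 lower with Yrr1Y at 0.74, and 13 higher and 3 lower with Yrr1IE at 0.50. As a share of all counts, the 45 genes took 0.127% to 0.160% in the 6 YPD libraries and 0.162% to 0.192% in the 6 4NQO libraries. In glycerol they took 0.809% and 0.848% with Yrr1S, 0.666% and 0.710% with Yrr1Y, and 0.310% and 0.302% with Yrr1IE.

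**Figure D2:**
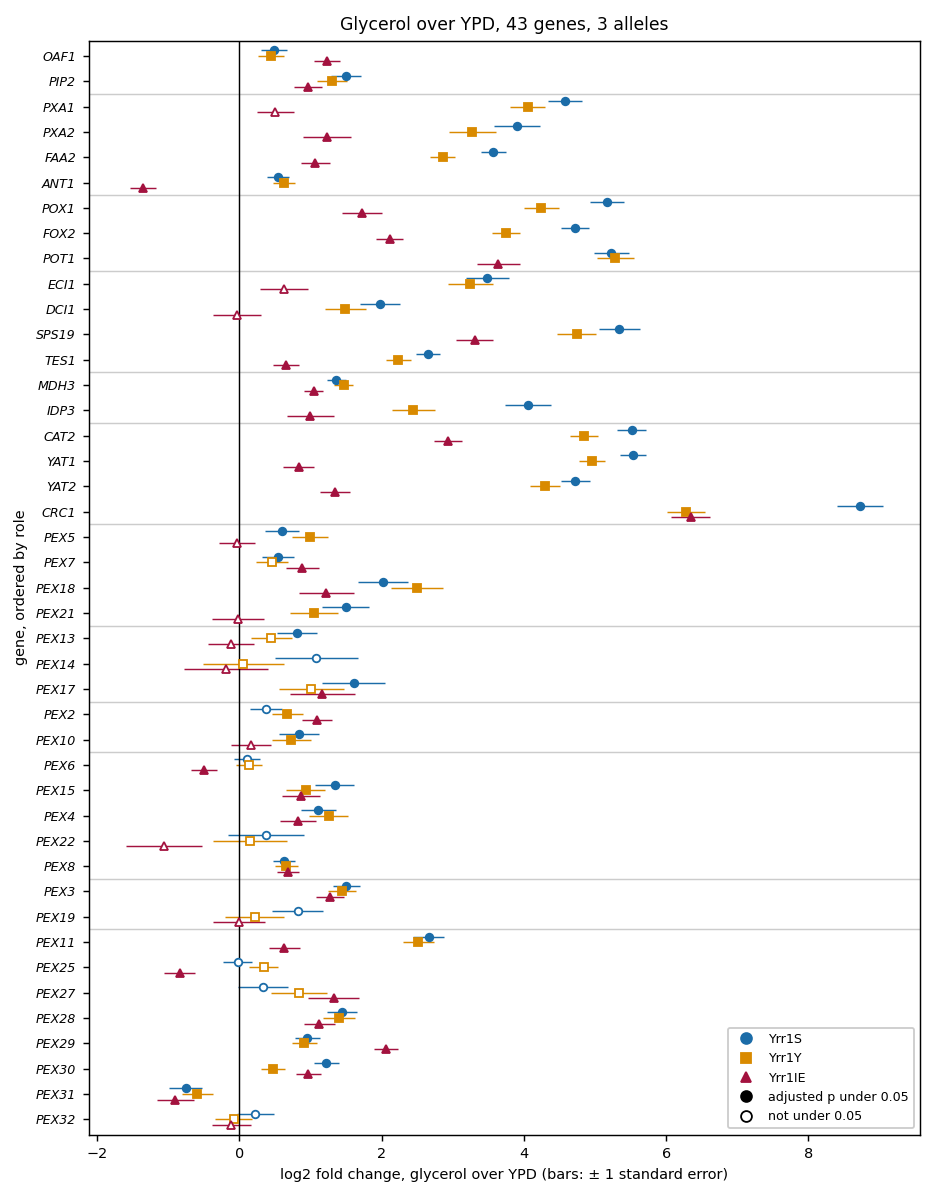
Log2 fold change of glycerol over YPD (x axis) for 43 of the 45 genes, ordered by role (y axis), with 1 point per allele (circles Yrr1S, squares Yrr1Y, triangles Yrr1IE), bars of 1 standard error and filled points for adjusted p under 0.05. Circles and squares of the enzymes and carnitine genes lie far to the right of 0. Triangles of several genes lie near it, among them DCI1, ECI1, TES1, PXA1 at 0.51 and YAT1 at 0.84, and ANT1 is below it with Yrr1IE.

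Alleles were then compared within each medium. In glycerol Yrr1IE was lower than Yrr1S for 22 genes and higher for 3, where 48.3% of all loci were called, 20.7% as higher and 27.6% as lower. It was lower than Yrr1Y for 24 and higher for 3, where 43.1% were called, 17.1% as higher and 26.1% as lower. The median of the 45 was −0.55 against Yrr1S and −0.61 against Yrr1Y, beside medians of −0.11 and −0.10 over all loci. The glycerol response itself differed between Yrr1IE and Yrr1S for 22 genes, smaller for 20 and larger for 2, where 31.4% of all loci were called, 12% as larger and 19.4% as smaller. It differed between Yrr1IE and Yrr1Y for 21 genes, smaller for 19 and larger for 2, where 32.7% were called, 11.8% as larger and 20.9% as smaller. The comparisons with Yrr1IE share its libraries. Between Yrr1Y and Yrr1S in glycerol 2 genes were called, POX1 and FOX2, both lower with Yrr1Y, where 3.75% of all loci were called, 2.98% as higher and 0.763% as lower. Both calls were lost without library S13, S14 or S16, and PEX2 was called in their place without S16. The glycerol response of no member differed between Yrr1Y and Yrr1S in edgeR or DESeq2, with 7 at an unadjusted p under 0.05 in edgeR, where 0.624% of all loci were called.

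In YPD no member differed between Yrr1Y and Yrr1S in edgeR or in DESeq2, with 3 at an unadjusted p under 0.05 in edgeR, where 0.884% of all loci were called. Yrr1IE was higher than Yrr1S in YPD for 4 genes, PIP2, PXA1, SPS19 and YAT2, where 11.7% of all loci were called, 7.28% as higher and 4.41% as lower. Of these, 0 were kept without library S3 or S4, PIP2 alone was kept without S5 and in a fit of the 4 libraries alone, and PXA1 and YAT2 were kept without S6. POT1 was newly called without S3, and POT1 and FOX2 without S6. Yrr1IE was lower than Yrr1Y in YPD for 3 genes, FAA2, PEX30 and PEX31, where 14.2% were called, 7.42% as higher and 6.73% as lower. None of the 3 was kept without library S1, S2, S5 or S6, where the members called were POT1 without S1, PIP2 without S2, PXA1 without S6 and none without S5. In DESeq2 PEX30 alone was kept. In 4NQO no member differed between Yrr1Y and Yrr1S in edgeR or in DESeq2, with 1 at an unadjusted p under 0.05 in edgeR, where 0.052% of all loci were called, 0.0173% as higher and 0.0347% as lower. PEX25 was the single member called there between Yrr1IE and Yrr1S, where 4.51% of all loci were called, 2.01% as higher and 2.5% as lower, and between Yrr1IE and Yrr1Y, where 4.06% were, 2.03% as higher and 2.03% as lower. It was higher with Yrr1IE, and neither call held without library S11, nor without S9 against Yrr1S, nor without S7 or S8 against Yrr1Y.

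In 4NQO fewer of these genes were called than in glycerol, as were fewer of all loci. The carnitine carrier CRC1 and the reductase SPS19 were higher with each allele. With Yrr1S 11 were higher than in YPD and 0 lower, where 31.2% of all loci were called, 15.9% as higher and 15.3% as lower. The 11 were CRC1, SPS19, PXA2, IDP3, CAT2, PXA1, YAT1, PEX30, PIP2, TES1 and PEX8. With Yrr1Y 3 were higher (CRC1, SPS19 and PXA2) and 3 lower (PEX31, FAA2 and ANT1), where 20.2% were called, 10.3% as higher and 9.85% as lower. With Yrr1IE 6 were higher (CRC1, CAT2, YAT1, SPS19, PEX30 and PEX29) and PEX19 was lower, where 25.9% were called, 12.9% as higher and 13% as lower. Of the 45, 24.4% were higher with Yrr1S, 6.67% with Yrr1Y and 13.3% with Yrr1IE, and 0%, 6.67% and 2.22% were lower. The share called higher was thus close to that of all loci with Yrr1IE and below it with Yrr1Y. The medians of the 45 were 0.33, 0.11 and 0.09 on the log2 scale, beside 0.03, 0.03 and 0.02 over all loci. Of the 11 calls with Yrr1S, CAT2, CRC1, PEX30, PXA2, SPS19 and YAT1 were kept without library S4 and without S10. Of the 6 with Yrr1Y, 0 were kept without library S2, 2 without S1, S7 or S8, and 2 in a fit of the 4 libraries alone, and CAT2, PEX10 and PEX17 were newly called without S8. CAT2 and YAT1 were the calls with Yrr1IE kept without each of S5, S6, S11 and S12. Of those 7, 2 were kept without S5, where PEX17 and PXA1 were newly called, and 4 without S6, without S11, where PEX6 was newly called, and without S12. The 4NQO response of no member differed between alleles in edgeR or DESeq2. At an unadjusted p under 0.05 in edgeR there were 6 for Yrr1Y against Yrr1S, 7 for Yrr1IE against Yrr1S and 5 for Yrr1IE against Yrr1Y, where 0.867%, 5.06% and 6.42% of all loci were called. Leaving out library S6, or fitting only the 8 libraries of the comparison, gave PEX19 for Yrr1IE against Yrr1Y.

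**Figure D3:**
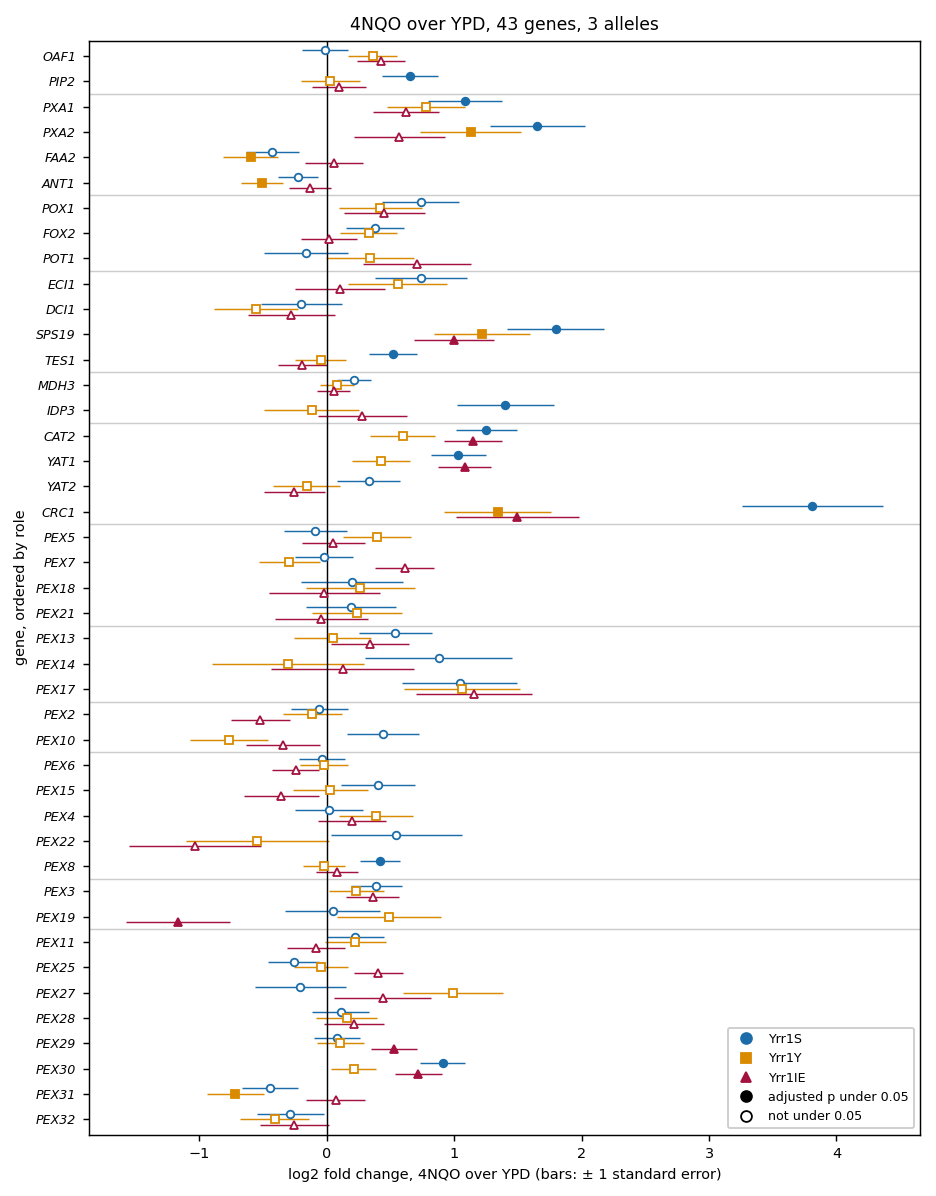
Log2 fold change of 4NQO over YPD (x axis) for 43 of the 45 genes, ordered by role (y axis), with 1 point per allele (circles Yrr1S, squares Yrr1Y, triangles Yrr1IE), bars of 1 standard error and filled points for adjusted p under 0.05. Most points lie near 0 and are open, and the point farthest to the right is CRC1 with Yrr1S at 3.81, whose YPD libraries held 3 reads in all.

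The 2 regulators of the oleate response were expressed in every library. PIP2, the partner of Oaf1 whose own upstream region holds a match, had levels in CPM (read counts relative to library size, scaled between libraries with TMM) in YPD of 31.4 and 29.2 with Yrr1S, 27.2 and 47.5 with Yrr1Y and 47.2 and 55 with Yrr1IE. In 4NQO PIP2 had 46.9 and 48.3 with Yrr1S, 35.3 and 40.9 with Yrr1Y and 49.5 and 60.3 with Yrr1IE, and in glycerol 86 and 85.7 with Yrr1S, 79.6 and 105 with Yrr1Y and 108 and 92.7 with Yrr1IE. Every glycerol library lay above every YPD and 4NQO library. PIP2 rose in glycerol with Yrr1S (log2 fold change 1.5 ± 0.21 (SE), edgeR adjusted p = 4.38e-07), Yrr1Y (1.3 ± 0.21) and Yrr1IE (0.97 ± 0.20). In YPD it was higher with Yrr1IE than with Yrr1S by 0.76 ± 0.22, and with Yrr1S it was higher in 4NQO than in YPD by 0.65 ± 0.22. OAF1, the fatty acid sensing partner, had CPM in YPD of 52.8 and 43.5 with Yrr1S, 47 and 39.6 with Yrr1Y and 44.6 and 37.2 with Yrr1IE. OAF1 stood in 4NQO at 48.5 and 46.6 with Yrr1S, 52 and 59 with Yrr1Y and 54 and 55.5 with Yrr1IE, and in glycerol at 70.9 and 63.9 with Yrr1S, 57.6 and 60.3 with Yrr1Y and 101 and 91.1 with Yrr1IE. The glycerol libraries lay above those in YPD for each allele, and the Yrr1IE pair was the highest of all. OAF1 rose in glycerol by 1.23 ± 0.18 with Yrr1IE, and by 0.49 ± 0.18 with Yrr1S and 0.45 ± 0.19 with Yrr1Y. In glycerol Yrr1IE exceeded Yrr1S by 0.50 ± 0.17 and Yrr1Y by 0.70 ± 0.17 (edgeR adjusted p = 0.0171 and 0.00166), and its response was larger than that with Yrr1S by 0.74 ± 0.26. For PIP2 the YPD allele call was lost without library S3, S4 or S6 (0.64 to 0.80), and the 4NQO call without library S3, S4, S9 or S10 (0.55 to 0.64). For OAF1 the calls were lost in glycerol with Yrr1S without library S3, S4, S15 or S16 (0.24 to 0.51), with Yrr1Y without library S1, S2, S13 or S14 (0.22 to 0.47), with DESeq2 size factors (0.42), without the filter on low counts (0.45), in DESeq2 (0.42) and in a fit of only its own 4 libraries (0.46), for Yrr1IE over Yrr1S without library S16 or S17 (0.44 to 0.51), and for the difference of responses without library S3, S6, S16 or S17 (0.67 to 0.74).

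Entry of fatty acids is served by 4 of the genes, and 3 of them rose strongly in glycerol with Yrr1S and Yrr1Y. PXA1, a subunit of the ABC transporter that carries long-chain acyl-CoA into peroxisomes, had CPM in YPD of 8.97 and 8.3 with Yrr1S, 9.86 and 10.2 with Yrr1Y and 20.9 and 12.3 with Yrr1IE. For PXA1 the 4NQO libraries gave 17.5 and 19 with Yrr1S, 17.6 and 16.9 with Yrr1Y and 25.2 and 25.3 with Yrr1IE, and the glycerol libraries 201 and 213 with Yrr1S, 164 and 170.5 with Yrr1Y and 17.4 and 28.3 with Yrr1IE. The Yrr1IE glycerol pair overlapped the Yrr1IE YPD pair, while the other glycerol libraries lay above all the rest. PXA1 rose 23.9-fold with Yrr1S (log2 4.58 ± 0.24) and 16.6-fold with Yrr1Y (4.05 ± 0.24), and its change with Yrr1IE was 0.51 ± 0.26, adjusted p = 0.0935. In glycerol it was 8.83-fold lower with Yrr1IE than with Yrr1S (log2 −3.14 ± 0.21, edgeR adjusted p = 3.49e-13) and lower than Yrr1Y (−2.84 ± 0.21), and the glycerol response differed from that with Yrr1S by −4.07 ± 0.37. In YPD it was higher with Yrr1IE than with Yrr1S by 0.93 ± 0.30, and in 4NQO it rose with Yrr1S by 1.08 ± 0.29. The YPD allele call was lost without library S3, S4 or S5 (0.51 to 0.98), in DESeq2 (0.93) and in a fit of only its own 4 libraries (0.97), and the 4NQO call without library S4 or S10 (0.97 to 0.98).

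PXA2, the other subunit of the transporter, started lower. Its CPM in YPD were 4.98 and 3.95 with Yrr1S, 5.22 and 5.66 with Yrr1Y and 9.36 and 6.73 with Yrr1IE. They were 14.9 and 13.3 with Yrr1S, 13.9 and 10.1 with Yrr1Y and 9.59 and 14.5 with Yrr1IE in 4NQO, and 74.5 and 59.5 with Yrr1S, 54.7 and 51.7 with Yrr1Y and 21.5 and 16.5 with Yrr1IE in glycerol. Every glycerol library was above every other library for this gene. PXA2 rose in glycerol by 3.9 ± 0.32 with Yrr1S, 3.28 ± 0.33 with Yrr1Y and 1.23 ± 0.34 with Yrr1IE, and the last was smaller than the first (−2.68 ± 0.49, edgeR adjusted p = 9.66e-05). PXA2 in glycerol was lower with Yrr1IE than with Yrr1S (−1.83 ± 0.27) and than Yrr1Y (−1.5 ± 0.27). PXA2 in 4NQO rose with Yrr1S by 1.65 ± 0.37 and with Yrr1Y by 1.13 ± 0.39, the latter lost without library S1, S2 or S7 (0.87 to 1.17), in DESeq2 (1.11) and in a fit of only its own 4 libraries (1.12). FAA2, the peroxisomal synthetase that activates medium-chain fatty acids, stood at 29.4 and 28.8 with Yrr1S, 34.2 and 36.2 with Yrr1Y and 25.4 and 19.8 with Yrr1IE in YPD. FAA2 in 4NQO measured 18.7 and 24.1 with Yrr1S, 26.9 and 19.8 with Yrr1Y and 22.7 and 24.1 with Yrr1IE, and in glycerol 345 and 348 with Yrr1S, 258 and 254 with Yrr1Y and 49.97 and 44.8 with Yrr1IE. The glycerol libraries were all above the rest, those with Yrr1S and Yrr1Y by far. FAA2 rose by 3.57 ± 0.17 with Yrr1S, 2.86 ± 0.17 with Yrr1Y and 1.07 ± 0.20 with Yrr1IE, a response smaller with Yrr1IE than with Yrr1S (−2.51 ± 0.27). In glycerol it was 7.35-fold lower with Yrr1IE than with Yrr1S (log2 −2.88 ± 0.17, edgeR adjusted p = 1.23e-14), and lower than Yrr1Y (−2.44 ± 0.17). With Yrr1Y it fell in 4NQO (−0.60 ± 0.21), and in YPD it was lower with Yrr1IE than with Yrr1Y (−0.65 ± 0.21). The first of these calls was lost without library S1, S2 or S8 (−0.40 to −0.66), without the filter on low counts (−0.59), in DESeq2 (−0.63) and in a fit of only its own 4 libraries (−0.60), and the second without library S1, S2, S5 or S6 (−0.45 to −0.81), in DESeq2 (−0.65) and in a fit of only its own 4 libraries (−0.62).

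ANT1, which exchanges ATP for AMP across the peroxisomal membrane, moved in opposite directions with different alleles. In YPD its CPM were 82.7 and 78.6 with Yrr1S, 78.8 and 97.8 with Yrr1Y and 75.8 and 85.1 with Yrr1IE. In 4NQO ANT1 had 68.6 and 69.3 with Yrr1S, 65 and 59.4 with Yrr1Y and 79.3 and 67.6 with Yrr1IE, and in glycerol 112 and 122 with Yrr1S, 132 and 141 with Yrr1Y and 34 and 29.3 with Yrr1IE. The 2 Yrr1IE glycerol libraries were the lowest of all 18, and the 4 other glycerol libraries were the highest. ANT1 rose with Yrr1S (0.54 ± 0.16) and Yrr1Y (0.63 ± 0.16) and fell with Yrr1IE (−1.35 ± 0.19, adjusted p = 2.12e-07 in edgeR), and the response with Yrr1IE differed from that with Yrr1S by −1.9 ± 0.24. In glycerol it was 3.72-fold lower with Yrr1IE than with Yrr1S (log2 −1.9 ± 0.18) and 4.33-fold lower than with Yrr1Y (−2.12 ± 0.18). With Yrr1Y it fell in 4NQO (−0.51 ± 0.17) on the log2 scale. The glycerol call with Yrr1S was lost without library S3, S4 or S16 (0.36 to 0.45), that with Yrr1Y without library S1 (0.37), and the 4NQO call without library S2, S7 or S8 (−0.36 to −0.59).

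**Figure D4:**
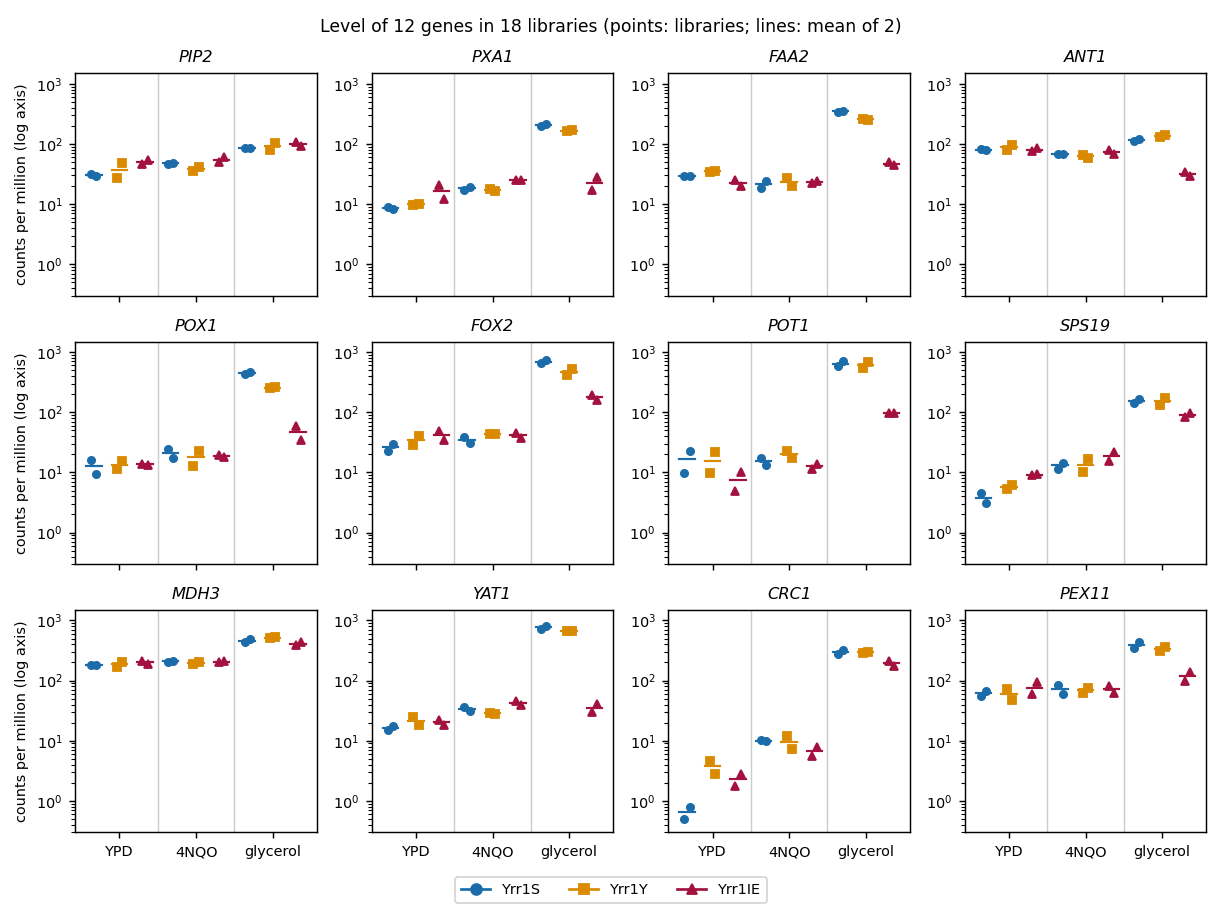
CPM on a log axis (y axis) of 12 of the genes in the 18 libraries, by medium (x axis) and allele (circles Yrr1S, squares Yrr1Y, triangles Yrr1IE), with 1 point per library and a line at the mean of 2. In glycerol the triangles of PXA1, FAA2, POX1, FOX2, POT1, YAT1 and PEX11 lie below the circles and squares, those of PIP2 and MDH3 lie at a like height, and ANT1 with Yrr1IE is at 34 and 29.3.

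The 3 enzymes of the beta-oxidation cycle were low in glucose and rose in glycerol with each allele. POX1, the acyl-CoA oxidase of the first step, had CPM in YPD of 15.9 and 9.48 with Yrr1S, 11.6 and 15.3 with Yrr1Y and 13.8 and 13.5 with Yrr1IE. POX1 stood in 4NQO at 24.7 and 17.3 with Yrr1S, 13 and 22.8 with Yrr1Y and 19.2 and 18.1 with Yrr1IE, and in glycerol at 432 and 464 with Yrr1S, 249 and 264 with Yrr1Y and 58.3 and 34 with Yrr1IE. In glycerol the pairs of the 3 alleles did not overlap, with Yrr1S highest, Yrr1Y next and Yrr1IE lowest. POX1 rose 35.9-fold with Yrr1S (log2 5.17 ± 0.24, edgeR adjusted p = 1.40e-17), 19-fold with Yrr1Y (4.25 ± 0.25) and 3.3-fold with Yrr1IE (1.72 ± 0.28). In glycerol it was lower with Yrr1Y than with Yrr1S (−0.81 ± 0.17, edgeR adjusted p = 0.00549), a call lost without library S13, S14 or S16 (−0.76 to −0.85). It was 9.92-fold lower with Yrr1IE than with Yrr1S (log2 −3.31 ± 0.21), lower than Yrr1Y (−2.5 ± 0.21), and its response with Yrr1IE was smaller than with Yrr1S (−3.44 ± 0.40). Its 4NQO changes of 0.74 ± 0.30, 0.42 ± 0.33 and 0.45 ± 0.32 with Yrr1S, Yrr1Y and Yrr1IE did not pass the test.

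FOX2, the multifunctional enzyme with hydratase and dehydrogenase activities, had CPM in YPD of 22.9 and 29.2 with Yrr1S, 29 and 40.2 with Yrr1Y and 48.6 and 34 with Yrr1IE. For FOX2 the 4NQO libraries gave 38.3 and 30.6 with Yrr1S, 44.1 and 43 with Yrr1Y and 45.5 and 37.4 with Yrr1IE, and the glycerol libraries 657 and 732 with Yrr1S, 414 and 517 with Yrr1Y and 197 and 160.1 with Yrr1IE. The allele pairs in glycerol again did not overlap and had the order seen for POX1. FOX2 rose 26.4-fold with Yrr1S (log2 4.72 ± 0.20), 13.4-fold with Yrr1Y (3.75 ± 0.20) and 4.32-fold with Yrr1IE (2.11 ± 0.19). In glycerol Yrr1Y was below Yrr1S (−0.58 ± 0.15, edgeR adjusted p = 0.0249), lost without library S13, S14 or S16 (−0.44 to −0.75). Yrr1IE was below Yrr1S (−1.97 ± 0.16) and below Yrr1Y (−1.39 ± 0.16), and the response differed from that with Yrr1S by −2.61 ± 0.28 (edgeR adjusted p = 1.52e-08). POT1, the ketoacyl-CoA thiolase that closes the cycle, stood in YPD at 9.96 and 22.9 with Yrr1S, 9.86 and 21.5 with Yrr1Y and 4.9 and 10.3 with Yrr1IE. POT1 in 4NQO measured 17.5 and 13.3 with Yrr1S, 22.7 and 17.3 with Yrr1Y and 11.6 and 13.9 with Yrr1IE, and in glycerol 579.9 and 699.5 with Yrr1S, 547 and 683 with Yrr1Y and 97.2 and 97.3 with Yrr1IE. In glycerol Yrr1S and Yrr1Y overlapped, and the Yrr1IE pair lay below both. POT1 rose 37.5-fold with Yrr1S (log2 5.23 ± 0.25), 39-fold with Yrr1Y (5.28 ± 0.26) and 12.5-fold with Yrr1IE (3.64 ± 0.30). In glycerol POT1 with Yrr1IE was 6.58-fold below that with Yrr1S (log2 −2.72 ± 0.21) and 6.32-fold below Yrr1Y (−2.66 ± 0.21). The response with Yrr1IE was smaller than with Yrr1S (−1.59 ± 0.46), lost without library S3 or S6 (−0.86 to −1.08). Between Yrr1Y and Yrr1S in glycerol POT1 differed by −0.06 ± 0.18, short of the test.

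Auxiliary enzymes handle unsaturated fatty acids and release acyl groups from CoA. SPS19, the dienoyl-CoA reductase, had CPM in YPD of 4.48 and 3.16 with Yrr1S, 5.22 and 6.22 with Yrr1Y and 8.91 and 9.5 with Yrr1IE. In 4NQO SPS19 had 11.5 and 14.6 with Yrr1S, 10.2 and 16.4 with Yrr1Y and 15.7 and 21.7 with Yrr1IE, and in glycerol 143 and 166 with Yrr1S, 134 and 176 with Yrr1Y and 84 and 98.8 with Yrr1IE. The 3 media did not overlap for SPS19, with every 4NQO library above every YPD library and every glycerol library above both. It rose in glycerol by 5.34 ± 0.29 with Yrr1S, 4.74 ± 0.28 with Yrr1Y and 3.31 ± 0.25 with Yrr1IE. SPS19 in 4NQO rose by 1.8 ± 0.38 with Yrr1S, 1.22 ± 0.38 with Yrr1Y and 1.0 ± 0.31 with Yrr1IE (edgeR adjusted p = 4.22e-04, 0.0192 and 0.0173). SPS19 in glycerol was lower with Yrr1IE than with Yrr1S (−0.75 ± 0.19) and than Yrr1Y (−0.75 ± 0.19), its response was smaller than that with Yrr1S (−2.03 ± 0.45), and in YPD it exceeded Yrr1S by 1.28 ± 0.41. The 4NQO calls were lost with Yrr1Y without library S1, S2 or S8 (0.81 to 1.34) and in a fit of only its own 4 libraries (1.21), and with Yrr1IE without library S5, S6 or S12 (0.73 to 1.01). The allele calls were lost against Yrr1S in glycerol without library S16 (−0.57), against Yrr1Y in glycerol without library S14 (−0.46), and against Yrr1S in YPD without library S3, S4, S5 or S6 (1.04 to 1.52) and in a fit of only its own 4 libraries (1.32). The locus YNL203C covers 53.8% of SPS19, and the libraries keep no strand, but it held 57 reads in all libraries where SPS19 held 2013.

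ECI1, the enoyl-CoA isomerase, had CPM in YPD of 7.97 and 6.32 with Yrr1S, 6.96 and 7.92 with Yrr1Y and 12.5 and 9.11 with Yrr1IE. ECI1 stood in 4NQO at 11.1 and 12.6 with Yrr1S, 6.5 and 15.2 with Yrr1Y and 11.1 and 12.1 with Yrr1IE, and in glycerol at 74.1 and 85.7 with Yrr1S, 74.3 and 68 with Yrr1Y and 18 and 15.4 with Yrr1IE. With Yrr1IE the glycerol pair lay only just above the YPD pair, and it was far below the other glycerol libraries. ECI1 rose 11.2-fold with Yrr1S (log2 3.49 ± 0.30) and 9.5-fold with Yrr1Y (3.25 ± 0.32), and its change with Yrr1IE was 0.63 ± 0.34, adjusted p = 0.102 in edgeR. Yrr1IE was below Yrr1S (−2.26 ± 0.28) and below Yrr1Y (−2.09 ± 0.28), and the response differed from that with Yrr1S by −2.86 ± 0.46. DCI1, the paralog of ECI1, stood in YPD at 15.4 and 25.3 with Yrr1S, 30.1 and 20.9 with Yrr1Y and 19.6 and 19 with Yrr1IE. For DCI1 the 4NQO libraries gave 11.1 and 24.1 with Yrr1S, 12.5 and 21.9 with Yrr1Y and 16.7 and 15.1 with Yrr1IE, and the glycerol libraries 76.4 and 86.5 with Yrr1S, 64.9 and 78.8 with Yrr1Y and 19.4 and 18.5 with Yrr1IE. With Yrr1IE all 6 libraries lay between 15.1 and 19.6, whatever the medium. DCI1 rose by 1.98 ± 0.28 with Yrr1S and 1.49 ± 0.28 with Yrr1Y, and changed by −0.03 ± 0.34 with Yrr1IE (edgeR adjusted p = 0.95). In glycerol DCI1 was lower with Yrr1IE than with Yrr1S (−2.1 ± 0.30) and than Yrr1Y (−1.92 ± 0.30), and the response was smaller than that with Yrr1S (−2.0 ± 0.44).

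TES1, the peroxisomal acyl-CoA thioesterase, had CPM in YPD of 33.9 and 32.4 with Yrr1S, 34.2 and 43.5 with Yrr1Y and 45 and 48.3 with Yrr1IE. TES1 in 4NQO measured 50.7 and 44.5 with Yrr1S, 33.9 and 41.3 with Yrr1Y and 36.4 and 45.9 with Yrr1IE, and in glycerol 191 and 226 with Yrr1S, 184 and 183 with Yrr1Y and 74.3 and 73.1 with Yrr1IE. Glycerol libraries were above all others, and the Yrr1IE pair was the lowest of them. TES1 rose in glycerol by 2.65 ± 0.17 with Yrr1S, 2.24 ± 0.18 with Yrr1Y and 0.66 ± 0.18 with Yrr1IE. TES1 in glycerol with Yrr1IE was below that with Yrr1S (−1.5 ± 0.16) and below Yrr1Y (−1.32 ± 0.16), and the response differed from that with Yrr1S by −1.99 ± 0.25 (edgeR adjusted p = 3.24e-07). TES1 in 4NQO rose with Yrr1S by 0.52 ± 0.19, lost without library S3, S4, S9 or S10 (0.37 to 0.57), with DESeq2 size factors (0.47) and in DESeq2 (0.48). YJR020W covers 26.8% of TES1 and held 26 reads in all, against 3128.

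MDH3 and IDP3 keep the redox cofactors of the matrix in balance. MDH3, the peroxisomal malate dehydrogenase that reoxidises NADH, was the most abundant of these genes in YPD per length. Its CPM in YPD were 179 and 179.8 with Yrr1S, 170.5 and 201 with Yrr1Y and 213 and 187 with Yrr1IE. In 4NQO MDH3 had 205 and 212 with Yrr1S, 189.8 and 203 with Yrr1Y and 206 and 209 with Yrr1IE, and in glycerol 432 and 494 with Yrr1S, 501 and 528 with Yrr1Y and 389 and 434 with Yrr1IE. The glycerol libraries formed one group that lay above the rest, whatever the allele. MDH3 rose by 1.37 ± 0.13 with Yrr1S, 1.47 ± 0.13 with Yrr1Y and 1.04 ± 0.13 with Yrr1IE. Yrr1IE was −0.17 ± 0.13 from Yrr1S in glycerol, short of the test, and below Yrr1Y (−0.32 ± 0.13, edgeR adjusted p = 0.0394), a call lost without library S13, S14, S17 or S18 (−0.20 to −0.32), with DESeq2 size factors (−0.28), in DESeq2 (−0.28) and in a fit of only its own 4 libraries (−0.23). IDP3, the NADP isocitrate dehydrogenase that supplies NADPH to the dienoyl-CoA reductase, had CPM in YPD of 6.48 and 3.56 with Yrr1S, 12.8 and 7.92 with Yrr1Y and 8.47 and 12.3 with Yrr1IE. IDP3 stood in 4NQO at 11.9 and 13.9 with Yrr1S, 9.75 and 9.27 with Yrr1Y and 11.6 and 13.9 with Yrr1IE, and in glycerol at 84.2 and 80.3 with Yrr1S, 49 and 63.7 with Yrr1Y and 25 and 17.5 with Yrr1IE. The Yrr1S glycerol pair was the highest, and the Yrr1IE pair the lowest of the glycerol libraries. IDP3 rose in glycerol by 4.06 ± 0.32 with Yrr1S, 2.44 ± 0.30 with Yrr1Y and 1.0 ± 0.33 with Yrr1IE, and in 4NQO by 1.4 ± 0.38 with Yrr1S. In glycerol IDP3 with Yrr1IE was below that with Yrr1S (−1.97 ± 0.27) and below Yrr1Y (−1.43 ± 0.27), and the response was smaller than that with Yrr1S (−3.06 ± 0.48). The glycerol call with Yrr1IE was lost without library S5 or S17 (0.72 to 0.74), and the 4NQO call without library S4 or S10 (0.95 to 1.23).

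Acetyl units made in the peroxisome are passed to carnitine and carried to mitochondria, and the 4 genes of this route included the largest glycerol responses. CRC1, the mitochondrial carrier that exchanges acetylcarnitine for carnitine, had CPM in YPD of 0.498 and 0.79 with Yrr1S, 4.64 and 2.83 with Yrr1Y and 1.78 and 2.77 with Yrr1IE. For CRC1 the 4NQO libraries gave 10.2 and 9.86 with Yrr1S, 12.1 and 7.17 with Yrr1Y and 5.55 and 7.84 with Yrr1IE, and the glycerol libraries 280.4 and 326 with Yrr1S, 285 and 303 with Yrr1Y and 214 and 172 with Yrr1IE. For CRC1 the 3 media did not overlap, and the Yrr1S YPD libraries held only 1 and 2 reads. Its fitted log2 changes in glycerol were 8.72 ± 0.32 with Yrr1S, 6.28 ± 0.26 with Yrr1Y and 6.35 ± 0.28 with Yrr1IE, all past the test. The first rests on those 3 reads, and its ± of 0.32 is smaller than the counting error of so few. The ratio of summed counts per scaled total was 459 with an exact counting interval of 157 to 2228 (95%, counting error only). CRC1 in 4NQO rose by 3.81 ± 0.55, 1.34 ± 0.42 and 1.5 ± 0.49 with Yrr1S, Yrr1Y and Yrr1IE, the first with a ratio of 15.2 and an interval of 4.91 to 75.8. CRC1 in glycerol with Yrr1IE was below that with Yrr1S (−0.66 ± 0.15) and below Yrr1Y (−0.61 ± 0.15), and the response was smaller than that with Yrr1S (−2.37 ± 0.79, edgeR adjusted p = 0.0212). The 4NQO calls for CRC1 were lost with Yrr1Y without library S2 or S7 (0.91 to 1.01) and in a fit of only its own 4 libraries (1.34), and with Yrr1IE without library S5, S6 or S12 (1.19 to 1.82). Its glycerol calls were lost against Yrr1S without library S18 (−0.43), against Yrr1Y without library S18 (−0.38), and for the difference of responses without library S3, S4 or S6 (−1.94 to −2.68).

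YAT1, the carnitine acetyltransferase of the outer mitochondrial membrane, showed the largest difference between Yrr1IE and either other allele in glycerol among the 45. Its CPM in YPD were 14.9 and 17.8 with Yrr1S, 24.4 and 18.1 with Yrr1Y and 22.3 and 18.2 with Yrr1IE. YAT1 in 4NQO measured 36.2 and 31.6 with Yrr1S, 28.8 and 28.2 with Yrr1Y and 45.5 and 39.8 with Yrr1IE, and in glycerol 725 and 806 with Yrr1S, 662 and 661 with Yrr1Y and 29.8 and 41.2 with Yrr1IE. The Yrr1IE glycerol pair lay within the range of the 4NQO libraries, and the other glycerol libraries were all at 661.0 or higher. YAT1 rose 46.3-fold with Yrr1S (log2 5.53 ± 0.18), 31.1-fold with Yrr1Y (4.96 ± 0.18) and 1.79-fold with Yrr1IE (0.84 ± 0.22), the last lost without library S18 (0.52). In glycerol it was 21.2-fold lower with Yrr1IE than with Yrr1S (log2 −4.41 ± 0.17, edgeR adjusted p = 9.18e-19) and 18.3-fold lower than with Yrr1Y (−4.2 ± 0.17), and the response differed from that with Yrr1S by −4.7 ± 0.29. YAT1 in 4NQO rose with Yrr1S by 1.03 ± 0.22 and with Yrr1IE by 1.08 ± 0.21, and its change with Yrr1Y was 0.43 ± 0.23, adjusted p = 0.195. CAT2, the carnitine acetyltransferase shared by peroxisomes and mitochondria, stood in YPD at 13.9 and 13.4 with Yrr1S, 18.6 and 17.5 with Yrr1Y and 23.2 and 14.7 with Yrr1IE. In 4NQO CAT2 had 35.8 and 29.9 with Yrr1S, 33.4 and 21.5 with Yrr1Y and 39.9 and 43.4 with Yrr1IE, and in glycerol 590.0 and 666 with Yrr1S, 502 and 540.4 with Yrr1Y and 144 and 143 with Yrr1IE. All glycerol libraries were above all others, and the Yrr1IE pair was far below the rest of them. CAT2 rose 45.8-fold with Yrr1S (log2 5.52 ± 0.20), 28.8-fold with Yrr1Y (4.85 ± 0.20) and 7.64-fold with Yrr1IE (2.93 ± 0.20). Yrr1IE was 4.38-fold below Yrr1S in glycerol (log2 −2.13 ± 0.16) and 3.63-fold below Yrr1Y (−1.86 ± 0.16), with a response smaller than that with Yrr1S (−2.58 ± 0.31). CAT2 in 4NQO rose with Yrr1S (1.25 ± 0.24) and Yrr1IE (1.15 ± 0.23).

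YAT2, a further carnitine acetyltransferase, had CPM in YPD of 19.9 and 23.3 with Yrr1S, 33 and 19.8 with Yrr1Y and 44.6 and 29.7 with Yrr1IE. YAT2 stood in 4NQO at 25.6 and 28.9 with Yrr1S, 24.6 and 22.8 with Yrr1Y and 27.3 and 35 with Yrr1IE, and in glycerol at 638 and 516 with Yrr1S, 475 and 567 with Yrr1Y and 102 and 86.5 with Yrr1IE. The glycerol libraries lay above all others, those with Yrr1IE closest to them. YAT2 rose 26.4-fold with Yrr1S (log2 4.72 ± 0.21), 19.7-fold with Yrr1Y (4.3 ± 0.21) and 2.54-fold with Yrr1IE (1.34 ± 0.21). In glycerol YAT2 with Yrr1IE was below that with Yrr1S (−2.62 ± 0.18) and below Yrr1Y (−2.47 ± 0.18), and the response differed from that with Yrr1S by −3.38 ± 0.30 (edgeR adjusted p = 4.61e-10). In YPD it was higher with Yrr1IE than with Yrr1S by 0.76 ± 0.24, lost without library S3, S4 or S5 (0.45 to 0.89) and in a fit of only its own 4 libraries (0.80).

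**Figure D5:**
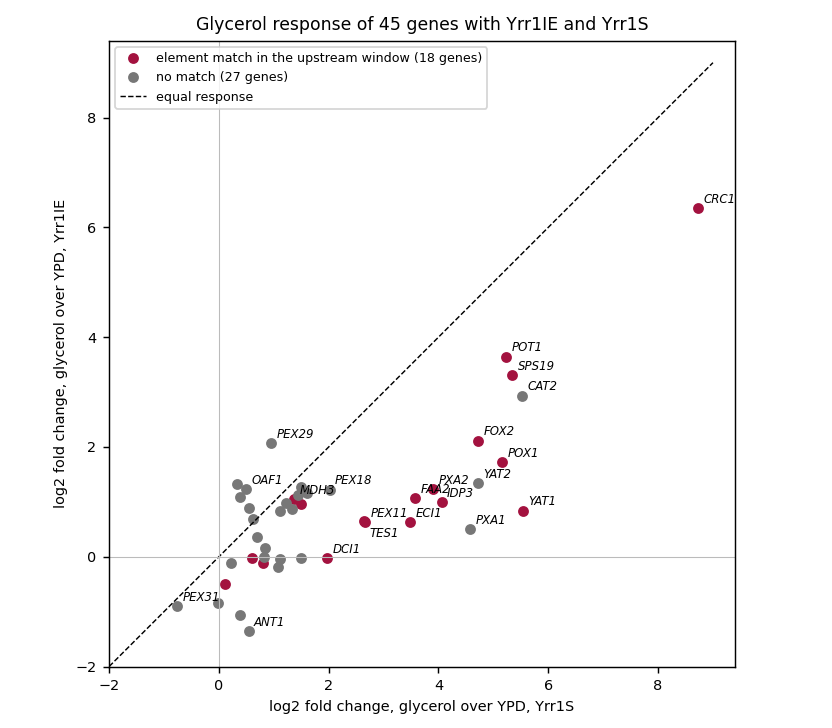
Log2 fold change of glycerol over YPD with Yrr1IE (y axis) against that with Yrr1S (x axis) for the 45 genes, coloured by a match of the oleate response element in the upstream window (18 genes) or none (27 genes). Points below the dashed line of equal response had a lower value with Yrr1IE, and the farthest below it are YAT1 and PXA1 with differences of −4.7 and −4.07.

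Of the 4 peroxins that bind matrix proteins or assist their receptors, PEX18 and PEX21 had the largest glycerol changes with Yrr1S and Yrr1Y. PEX18, the coreceptor of Pex7, had CPM in YPD of 10.5 and 8.69 with Yrr1S, 8.12 and 10.8 with Yrr1Y and 10.2 and 8.31 with Yrr1IE. For PEX18 the 4NQO libraries gave 14.1 and 8.16 with Yrr1S, 15.8 and 7.17 with Yrr1Y and 7.57 and 10.9 with Yrr1IE, and the glycerol libraries 34.8 and 42.6 with Yrr1S, 52.3 and 55.1 with Yrr1Y and 13.9 and 28.3 with Yrr1IE. The Yrr1S and Yrr1Y glycerol libraries were above all others, and the Yrr1IE libraries S17 and S18 differed from each other. PEX18 rose in glycerol by 2.02 ± 0.36 with Yrr1S, 2.5 ± 0.36 with Yrr1Y and 1.22 ± 0.38 with Yrr1IE, the last lost without library S6 or S18 (0.54 to 1.03). PEX18 in glycerol was lower with Yrr1IE than Yrr1Y (−1.31 ± 0.32) and than with Yrr1S (−0.84 ± 0.33), the latter lost without library S15, S16 or S17 (−0.45 to −0.98), in DESeq2 (−0.82) and in a fit of only its own 4 libraries (−0.75). PEX21, the paralog of PEX18, stood in YPD at 15.9 and 20.6 with Yrr1S, 12.2 and 32.8 with Yrr1Y and 24.1 and 18.2 with Yrr1IE. PEX21 in 4NQO measured 23.9 and 18.4 with Yrr1S, 28.3 and 24.9 with Yrr1Y and 18.2 and 22.9 with Yrr1IE, and in glycerol 59.9 and 43.9 with Yrr1S, 47.8 and 45.6 with Yrr1Y and 11.1 and 28.8 with Yrr1IE. The Yrr1IE glycerol libraries overlapped those in YPD. PEX21 rose by 1.49 ± 0.33 with Yrr1S and 1.05 ± 0.33 with Yrr1Y, and its change with Yrr1IE was −0.02 ± 0.37. In glycerol PEX21 with Yrr1IE was below that with Yrr1S (−1.32 ± 0.34) and below Yrr1Y (−1.17 ± 0.34), with a response smaller than that with Yrr1S (−1.51 ± 0.49). The calls for PEX21 were lost with Yrr1Y without library S1 or S13 (0.40 to 0.90), against Yrr1S without library S17 (−0.84), against Yrr1Y without library S17 (−0.69), and for the responses without library S3, S5, S15 or S17 (−1.04 to −1.28).

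PEX5, the receptor of the main targeting signal of matrix proteins, had CPM in YPD of 36.4 and 23.7 with Yrr1S, 24.4 and 20.4 with Yrr1Y and 31.6 and 34 with Yrr1IE. In 4NQO PEX5 had 29.8 and 26.2 with Yrr1S, 28.8 and 29.9 with Yrr1Y and 39.4 and 28.4 with Yrr1IE, and in glycerol 47.1 and 43 with Yrr1S, 40.02 and 49.1 with Yrr1Y and 36.1 and 28.8 with Yrr1IE. The glycerol libraries were the highest of each allele with Yrr1S and Yrr1Y, and overlapped those of the other media with Yrr1IE. PEX5 rose by 0.60 ± 0.24 with Yrr1S and 0.99 ± 0.25 with Yrr1Y, and changed by −0.03 ± 0.25 with Yrr1IE (edgeR adjusted p = 0.923). PEX7, the receptor of the second signal, which thiolase carries, had CPM in YPD of 37.4 and 33.2 with Yrr1S, 42.9 and 35.1 with Yrr1Y and 34.3 and 26.5 with Yrr1IE. PEX7 stood in 4NQO at 35.8 and 33.6 with Yrr1S, 30.2 and 33.3 with Yrr1Y and 43.4 and 49.5 with Yrr1IE, and in glycerol at 39.3 and 63 with Yrr1S, 54.3 and 53 with Yrr1Y and 59 and 53.5 with Yrr1IE. The glycerol libraries were the highest of each allele. PEX7 rose by 0.89 ± 0.23 with Yrr1IE and 0.54 ± 0.22 with Yrr1S, and its change with Yrr1Y was 0.46 ± 0.22 (edgeR adjusted p = 0.0831). With each allele both receptors changed less than POX1, FOX2 and POT1. The PEX5 calls were lost with Yrr1S without library S4, S15 or S16 (0.20 to 0.55) and in DESeq2 (0.58), and with Yrr1Y without library S2 (0.76). The PEX7 call with Yrr1S was lost without library S3, S4 or S16 (0.04 to 0.50), in DESeq2 (0.52) and in a fit of only its own 4 libraries (0.56).

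Of the 3 genes of the docking complex at the membrane, 2 were higher in glycerol with Yrr1S, 0 with Yrr1Y and 1 with Yrr1IE. Of all loci 29.1%, 28.5% and 33.2% were higher in these comparisons. PEX17 had CPM in YPD of 7.47 and 6.72 with Yrr1S, 5.8 and 10.8 with Yrr1Y and 11.1 and 3.96 with Yrr1IE. For PEX17 the 4NQO libraries gave 9.37 and 19.4 with Yrr1S, 23.2 and 11.8 with Yrr1Y and 14.1 and 19.3 with Yrr1IE, and the glycerol libraries 21.9 and 21.3 with Yrr1S, 16.3 and 17.2 with Yrr1Y and 19.4 and 14.4 with Yrr1IE. The Yrr1S glycerol pair lay above all other Yrr1S libraries, and with Yrr1Y and Yrr1IE the glycerol and 4NQO libraries overlapped. PEX17 rose in glycerol by 1.61 ± 0.44 with Yrr1S and 1.17 ± 0.46 with Yrr1IE, and changed by 1.01 ± 0.46 with Yrr1Y (edgeR adjusted p = 0.0612). PEX13 had CPM in YPD of 25.4 and 18.6 with Yrr1S, 30.7 and 17.5 with Yrr1Y and 24.1 and 15.1 with Yrr1IE. PEX13 in 4NQO measured 28.1 and 35 with Yrr1S, 22.3 and 27.4 with Yrr1Y and 22.2 and 27.1 with Yrr1IE, and in glycerol 37.5 and 39.1 with Yrr1S, 31 and 34.9 with Yrr1Y and 22.2 and 14.4 with Yrr1IE. With Yrr1IE the glycerol libraries of PEX13 overlapped those in YPD, and with Yrr1S they were its highest. PEX13 rose by 0.81 ± 0.28 with Yrr1S, and in glycerol Yrr1IE was lower than Yrr1S (−1.09 ± 0.30) and than Yrr1Y (−0.87 ± 0.31). Docking calls were lost for PEX17 with Yrr1IE without library S6 or S17 (0.54 to 0.96), and for PEX13 with Yrr1S without library S4 or S16 (0.48 to 0.66), against Yrr1S without library S18 (−0.71) and against Yrr1Y without library S13, S14 or S18 (−0.49 to −0.87) and in a fit of only its own 4 libraries (−0.78). PEX14 was called in no comparison at 3 to 23 reads per library, and the locus YGL152C covers 59.2% of it with 1 read in all.

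The RING ligases Pex2 and Pex10 ubiquitinate the receptors for recycling. PEX2 had CPM in YPD of 42.9 and 56.1 with Yrr1S, 61.5 and 48.6 with Yrr1Y and 60.2 and 61 with Yrr1IE. In 4NQO PEX2 had 50.3 and 45.5 with Yrr1S, 52.5 and 49.3 with Yrr1Y and 39.4 and 45.2 with Yrr1IE, and in glycerol 45.3 and 83.9 with Yrr1S, 88.2 and 87.4 with Yrr1Y and 110.3 and 147 with Yrr1IE. The Yrr1IE glycerol pair was the highest, and the Yrr1S glycerol libraries differed from each other. PEX2 rose by 1.1 ± 0.21 with Yrr1IE and 0.67 ± 0.22 with Yrr1Y, and in glycerol Yrr1IE exceeded Yrr1S by 1.0 ± 0.21 and Yrr1Y by 0.56 ± 0.20. YJL211C covers 34.6% of PEX2 and held 235 reads in all, against 2496, and the libraries keep no strand. PEX10 had CPM in YPD of 18.9 and 19 with Yrr1S, 26.1 and 24.9 with Yrr1Y and 31.6 and 21.4 with Yrr1IE. PEX10 stood in 4NQO at 24.3 and 27.2 with Yrr1S, 10.2 and 19.4 with Yrr1Y and 16.7 and 25.3 with Yrr1IE, and in glycerol at 32.5 and 35.5 with Yrr1S, 40.4 and 44.4 with Yrr1Y and 28.4 and 30.4 with Yrr1IE. PEX10 rose by 0.84 ± 0.28 with Yrr1S and 0.73 ± 0.27 with Yrr1Y. For PEX10 the Yrr1S and Yrr1Y glycerol libraries lay above those of the same allele in the other media. For PEX2 the call with Yrr1Y was lost without library S2, S13 or S14 (0.41 to 0.58), and that against Yrr1Y without library S14 or S18 (0.41 to 0.63). For PEX10 the calls were lost with Yrr1S without library S3, S4 or S16 (0.66 to 0.73), and with Yrr1Y without library S1, S2, S13 or S14 (0.57 to 0.69).

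Export and recycling of the receptors needs the ATPase Pex6, its anchor Pex15, the ubiquitin-conjugating enzyme Pex4 with its anchor Pex22, and Pex8. PEX15 had CPM in YPD of 15.4 and 16.6 with Yrr1S, 12.8 and 28.3 with Yrr1Y and 23.6 and 22.2 with Yrr1IE. PEX15 in 4NQO measured 18.3 and 23.8 with Yrr1S, 20.9 and 21.1 with Yrr1Y and 17.7 and 18.1 with Yrr1IE, and in glycerol 38.9 and 42.6 with Yrr1S, 42.1 and 36.6 with Yrr1Y and 43 and 40.7 with Yrr1IE. PEX15 rose by 1.34 ± 0.28 with Yrr1S, 0.93 ± 0.28 with Yrr1Y and 0.87 ± 0.27 with Yrr1IE. PEX4 had CPM in YPD of 22.4 and 17.8 with Yrr1S, 18 and 14.1 with Yrr1Y and 24.1 and 19.4 with Yrr1IE. In 4NQO PEX4 had 16.2 and 23.8 with Yrr1S, 20.9 and 21.1 with Yrr1Y and 21.7 and 28.4 with Yrr1IE, and in glycerol 40.7 and 45.7 with Yrr1S, 39.6 and 37 with Yrr1Y and 38.9 and 38.1 with Yrr1IE. PEX4 rose by 1.25 ± 0.27 with Yrr1Y, 1.11 ± 0.25 with Yrr1S and 0.83 ± 0.26 with Yrr1IE, and every glycerol library of PEX4 and of PEX15 lay above every library of the other media. Calls were lost for PEX15 with Yrr1Y without library S1 or S13 (0.37 to 0.72) and with Yrr1IE without library S6 (0.78), and for PEX4 with Yrr1IE without library S6 (0.64).

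PEX8, which links the docking and RING complexes, had CPM in YPD of 91.2 and 84.5 with Yrr1S, 93.9 and 99.5 with Yrr1Y and 80.2 and 98.2 with Yrr1IE. For PEX8 the 4NQO libraries gave 114 and 121 with Yrr1S, 83.5 and 107 with Yrr1Y and 89.4 and 100.2 with Yrr1IE, and the glycerol libraries 149 and 122 with Yrr1S, 154 and 153 with Yrr1Y and 142 and 145 with Yrr1IE. All glycerol libraries of PEX8 were above all others, and the alleles overlapped. PEX8 rose in glycerol by 0.62 ± 0.16 with Yrr1S, 0.66 ± 0.16 with Yrr1Y and 0.68 ± 0.16 with Yrr1IE, and in 4NQO by 0.42 ± 0.16 with Yrr1S. PEX6 had CPM in YPD of 82.2 and 80.6 with Yrr1S, 72.5 and 78.6 with Yrr1Y and 90.5 and 104 with Yrr1IE. PEX6 in 4NQO measured 75 and 83.6 with Yrr1S, 80.8 and 68.3 with Yrr1Y and 99.98 and 63.4 with Yrr1IE, and in glycerol 76.4 and 99.4 with Yrr1S, 79.6 and 86.5 with Yrr1Y and 70.8 and 67.4 with Yrr1IE. With Yrr1IE the glycerol pair lay below the YPD pair and within the 4NQO pair. PEX6 fell in glycerol with Yrr1IE (−0.50 ± 0.19) and changed by 0.11 ± 0.18 with Yrr1S and 0.14 ± 0.19 with Yrr1Y. Calls were lost for PEX8 in glycerol with Yrr1S without library S4 (0.46) and in 4NQO without library S3, S4, S9 or S10 (0.32 to 0.41), with DESeq2 size factors (0.37) and in DESeq2 (0.37), and for PEX6 without library S6 or S18 (−0.43 to −0.50). PEX22 was called in no comparison at 6 to 30 reads per library.

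Pex3 and Pex19 insert peroxisomal membrane proteins and are needed for the organelle to form. PEX3 had CPM in YPD of 49.3 and 34 with Yrr1S, 43.5 and 35.6 with Yrr1Y and 44.6 and 32.9 with Yrr1IE. In 4NQO PEX3 had 59.2 and 49.3 with Yrr1S, 50.6 and 42.6 with Yrr1Y and 49 and 50.1 with Yrr1IE, and in glycerol 116 and 118 with Yrr1S, 117 and 97.3 with Yrr1Y and 93 and 93.2 with Yrr1IE. Every glycerol library lay above every other library for PEX3. PEX3 rose by 1.5 ± 0.19 with Yrr1S, 1.44 ± 0.20 with Yrr1Y and 1.27 ± 0.20 with Yrr1IE (edgeR adjusted p = 6.57e-08, 3.18e-07 and 1.92e-06). PEX19 had CPM in YPD of 22.4 and 15 with Yrr1S, 15.1 and 13 with Yrr1Y and 34.3 and 17 with Yrr1IE. PEX19 stood in 4NQO at 16.2 and 21.8 with Yrr1S, 22.7 and 16.9 with Yrr1Y and 10.1 and 12.7 with Yrr1IE, and in glycerol at 36.1 and 29.3 with Yrr1S, 20.01 and 12.5 with Yrr1Y and 37.5 and 14.9 with Yrr1IE. The replicates of PEX19 spread widely, in YPD with Yrr1IE and in glycerol with Yrr1Y and Yrr1IE. PEX19 fell in 4NQO with Yrr1IE (−1.17 ± 0.40), a call lost without library S5, S11 or S12 (−0.63 to −1.36).

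Genes of peroxisome division and size differed from one another. PEX11, which elongates the organelle before it divides and whose upstream region holds a match, had CPM in YPD of 55.8 and 68.4 with Yrr1S, 71.9 and 47 with Yrr1Y and 59.3 and 93 with Yrr1IE. For PEX11 the 4NQO libraries gave 86 and 60.8 with Yrr1S, 62.7 and 75.9 with Yrr1Y and 80.8 and 62.8 with Yrr1IE, and the glycerol libraries 353 and 436 with Yrr1S, 315 and 364 with Yrr1Y and 97.9 and 137 with Yrr1IE. The Yrr1S and Yrr1Y glycerol libraries were above all others, and the Yrr1IE pair lay just above the Yrr1IE YPD pair. PEX11 rose 6.32-fold with Yrr1S (log2 2.66 ± 0.21), 5.72-fold with Yrr1Y (2.52 ± 0.22) and 1.55-fold with Yrr1IE (0.63 ± 0.22), the last lost without library S5 or S18 (0.30 to 0.31). PEX11 in glycerol with Yrr1IE was below that with Yrr1S (−1.74 ± 0.20) and below Yrr1Y (−1.52 ± 0.20), and the response differed from that with Yrr1S by −2.03 ± 0.30 (edgeR adjusted p = 5.41e-06). PEX25, a paralog of PEX11, stood in YPD at 45.8 and 50.6 with Yrr1S, 45.8 and 37.3 with Yrr1Y and 54.8 and 50.3 with Yrr1IE. PEX25 in 4NQO measured 35.8 and 44.5 with Yrr1S, 41.3 and 39.2 with Yrr1Y and 75.7 and 62.8 with Yrr1IE, and in glycerol 46.6 and 48.4 with Yrr1S, 51 and 54.3 with Yrr1Y and 25 and 33 with Yrr1IE. With Yrr1IE it was highest in 4NQO and lowest in glycerol. PEX25 fell in glycerol with Yrr1IE (−0.84 ± 0.22), where Yrr1IE was below Yrr1S (−0.70 ± 0.22) and below Yrr1Y (−0.84 ± 0.22), and the response differed from that with Yrr1S by −0.82 ± 0.29. In 4NQO it was higher with Yrr1IE than with Yrr1S by 0.78 ± 0.20 and than Yrr1Y by 0.79 ± 0.20 (edgeR adjusted p = 0.0142 and 0.0176). The calls for PEX25 were lost against Yrr1S in glycerol without library S16 or S17 (−0.53 to −0.59) and in a fit of only its own 4 libraries (−0.61), for the responses without library S3, S4, S5, S6, S15, S16 or S17 (−0.65 to −0.84), in DESeq2 (−0.78) and in a fit of only its own 8 libraries (−0.73), and in 4NQO against Yrr1S without library S9 or S11 (0.63 to 0.65) and against Yrr1Y without library S7, S8 or S11 (0.61 to 0.82). PEX27, a further paralog, had CPM in YPD of 9.47 and 18.6 with Yrr1S, 6.38 and 11.3 with Yrr1Y and 10.2 and 10.7 with Yrr1IE. In 4NQO PEX27 had 13.6 and 11.2 with Yrr1S, 18.1 and 17.3 with Yrr1Y and 16.2 and 12.1 with Yrr1IE, and in glycerol 15.1 and 20.9 with Yrr1S, 13.9 and 18.1 with Yrr1Y and 23.6 and 28.8 with Yrr1IE. The Yrr1IE glycerol pair was the highest of all libraries. PEX27 rose in glycerol with Yrr1IE by 1.33 ± 0.36, and changed by 0.33 ± 0.35 with Yrr1S and 0.84 ± 0.39 with Yrr1Y.

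PEX28 to PEX32 encode membrane proteins that limit the size and number of peroxisomes. PEX29 had CPM in YPD of 62.8 and 56.1 with Yrr1S, 63.2 and 69.6 with Yrr1Y and 54.4 and 62.2 with Yrr1IE. PEX29 stood in 4NQO at 72 and 54.4 with Yrr1S, 77.5 and 65.8 with Yrr1Y and 92.4 and 75.4 with Yrr1IE, and in glycerol at 109 and 121 with Yrr1S, 111 and 139 with Yrr1Y and 229 and 259 with Yrr1IE. The Yrr1IE glycerol pair was the highest of all libraries. PEX29 rose by 2.07 ± 0.17 with Yrr1IE, 0.96 ± 0.18 with Yrr1S and 0.91 ± 0.18 with Yrr1Y, and in glycerol Yrr1IE exceeded Yrr1S by 1.09 ± 0.16 and Yrr1Y by 0.97 ± 0.16, with a response larger than that with Yrr1S by 1.11 ± 0.24. PEX29 in 4NQO rose with Yrr1IE (0.53 ± 0.18), a call lost without library S5, S6 or S11 (0.31 to 0.59) and in DESeq2 (0.50). PEX29 lies on chromosome IV at 1415210 to 1416874, 935 bases from SNF1 with 1 locus between them, and the part of the missing SNF1 reads in its level was not tested. PEX28 had CPM in YPD of 28.9 and 29.6 with Yrr1S, 27.8 and 26.6 with Yrr1Y and 31.6 and 23 with Yrr1IE. For PEX28 the 4NQO libraries gave 29.4 and 33.6 with Yrr1S, 32.5 and 28.2 with Yrr1Y and 32.8 and 30.2 with Yrr1IE, and the glycerol libraries 88.7 and 71 with Yrr1S, 62.9 and 81 with Yrr1Y and 62.5 and 56.6 with Yrr1IE. PEX28 rose by 1.44 ± 0.21 with Yrr1S, 1.4 ± 0.22 with Yrr1Y and 1.13 ± 0.22 with Yrr1IE, with every glycerol library above every other library.

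PEX30, a reticulon-like protein at sites where peroxisomes form from the endoplasmic reticulum, had CPM in YPD of 44.8 and 54.1 with Yrr1S, 79.4 and 67.9 with Yrr1Y and 47.2 and 50.3 with Yrr1IE. PEX30 in 4NQO measured 89.4 and 97.2 with Yrr1S, 72.9 and 97.4 with Yrr1Y and 82.8 and 77.8 with Yrr1IE, and in glycerol 114 and 118 with Yrr1S, 90.3 and 114 with Yrr1Y and 93 and 98.3 with Yrr1IE. For each allele the glycerol libraries lay above those in YPD. PEX30 rose in glycerol by 1.22 ± 0.17 with Yrr1S, 0.97 ± 0.18 with Yrr1IE and 0.47 ± 0.17 with Yrr1Y, and in 4NQO by 0.91 ± 0.18 with Yrr1S and 0.72 ± 0.18 with Yrr1IE. In YPD it was lower with Yrr1IE than Yrr1Y (−0.59 ± 0.18). PEX31, its paralog, was the PEX gene that fell in glycerol with each allele. Its CPM in YPD were 40.4 and 36.8 with Yrr1S, 47 and 50.3 with Yrr1Y and 29 and 30.9 with Yrr1IE. In 4NQO PEX31 had 28.5 and 27.9 with Yrr1S, 28.8 and 30.4 with Yrr1Y and 34.8 and 27.8 with Yrr1IE, and in glycerol 24.7 and 20.9 with Yrr1S, 34.7 and 29.7 with Yrr1Y and 17.4 and 14.9 with Yrr1IE. The Yrr1IE glycerol pair was the lowest of all libraries. PEX31 fell in glycerol with Yrr1S (−0.76 ± 0.23), Yrr1Y (−0.59 ± 0.22) and Yrr1IE (−0.90 ± 0.26), and in 4NQO with Yrr1Y (−0.72 ± 0.22). It was lower with Yrr1IE than with Yrr1Y in YPD (−0.70 ± 0.22) and in glycerol (−1.01 ± 0.26). Calls for PEX30 were lost in glycerol with Yrr1Y without library S1, S2 or S14 (0.20 to 0.48), in 4NQO with Yrr1IE without library S5 or S11 (0.61 to 0.63), and in YPD without library S1, S2, S5 or S6 (−0.46 to −0.68). Calls for PEX31 were lost in glycerol with Yrr1Y without library S2 or S14 (−0.59 to −0.65), in 4NQO without library S1, S2, S7 or S8 (−0.68 to −0.79), against Yrr1Y in YPD without library S1, S2, S5 or S6 (−0.63 to −0.73) and in DESeq2 (−0.70), and against Yrr1Y in glycerol without library S18 (−0.81). PEX32, of the same family, was called in no comparison at 44 to 93 reads per library.

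Per length, the order of the genes changed with the medium. In YPD with Yrr1S, MDH3 led at a deposited FPKM of 163 ± 9.26 (SD, n = 2), followed by PEX11 at 81.2 ± 6.86 and ANT1 at 76.4 ± 7.21, the last pair overlapping, and the median of the 45 was 15.3. PXA1, PXA2 and CRC1 were the lowest there, at 3.05 ± 0.354, 1.65 ± 0.354 and 0.60 ± 0.141. In glycerol with Yrr1S, PEX11 led at 589.7 ± 76.4, followed by POT1 at 542 ± 60.6, MDH3 at 477 ± 35.3, YAT1 at 395 ± 21.4, CAT2 at 332 ± 21.6 and CRC1 at 328 ± 28.0, and the median was 69.3. The ranges of PEX11 and POT1 overlapped, as did those of POT1 and MDH3 and those of CAT2 and CRC1. In glycerol with Yrr1IE, MDH3 led at 383 ± 21.1, followed by CRC1 at 189 ± 33.3, PEX11 at 158 ± 33.6, PEX2 at 151 ± 27.1, PEX29 at 141 ± 8.84 and SPS19 at 99.8 ± 9.12, and the median was 27.9. There the ranges of CRC1 and PEX11, of PEX11 and PEX2, and of PEX2 and PEX29 overlapped.

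The 18 genes with an element match and the 27 without were set side by side, as a description. Match went with role, as 14 of the 19 enzymes, carriers and regulators held one against 4 of the 26 PEX genes. In glycerol with Yrr1S the medians by role were 4.06 for the 19 and 0.83 for the 26. The parts of match and role in a response were not tested. In glycerol with Yrr1S the 18 had a median log2 fold change of 3.53, with 17 called higher and PEX6 at 0.11 the exception. The 27 had a median of 0.96, with 19 higher and 1 lower, where 29.1% of all loci were higher and 28.6% lower. With Yrr1Y the medians were 2.69 and 0.75. With Yrr1IE they were 0.98 and 0.83. Among the genes without a match in this window, CAT2, PXA1 and YAT2 had glycerol responses with Yrr1S as large as those of matched enzymes, at 5.52, 4.58 and 4.72. OAF1 and ANT1, also without a match, had smaller ones. Between Yrr1IE and Yrr1S in glycerol the medians were −1.78 with a match, 14 genes being lower and 0 higher, and −0.36 without, 8 being lower and 3 higher. Of all loci 27.6% were lower in that comparison and 20.7% higher.

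A list of 24 other genes was read beside the 45, chosen for peroxisomal enzymes, fatty acid activation, inheritance and division, acetyl-CoA supply and the regulators of glucose derepression. In glycerol 15 of the 24 were higher and 5 lower with Yrr1S, 15 higher and 5 lower with Yrr1Y, and 14 higher and 2 lower with Yrr1IE. Of all loci 29.1% were higher and 28.6% lower with Yrr1S, 28.5% and 27% with Yrr1Y, and 33.2% and 32.3% with Yrr1IE. MLS1, the malate synthase of the glyoxylate cycle, rose by 7.55 ± 0.26 with Yrr1S, 6.99 ± 0.26 with Yrr1Y and 2.01 ± 0.43 with Yrr1IE. ACS1, an acetyl-CoA synthetase, rose by 7.62 ± 0.21, 6.63 ± 0.20 and 2.67 ± 0.19, and CTA1, the peroxisomal catalase, by 3.99 ± 0.15, 3.95 ± 0.16 and 1.75 ± 0.15. ADR1, the activator that works with Oaf1 and Pip2, rose with the 3 alleles by 4.22 ± 0.20, 3.85 ± 0.20 and 4.4 ± 0.21, and in glycerol Yrr1IE was below Yrr1S (−0.43 ± 0.16). Of the 24, 12 were lower with Yrr1IE than with Yrr1S in glycerol, SNF1 itself among them, and 4 were higher, where 27.6% of all loci were lower and 20.7% higher. FAA1, a synthetase for long-chain fatty acids outside the peroxisome, was among the higher, at 0.84 ± 0.15. FAA4, also chosen for fatty acid activation, went the other way, at 169 and 157 CPM in glycerol with Yrr1IE against 440 and 418 with Yrr1S. CIT2, the peroxisomal citrate synthase, was higher with Yrr1IE than with Yrr1S in YPD by 1.54 ± 0.20, where its CPM were 56.3 and 67.2 with Yrr1S, 52.2 and 66.7 with Yrr1Y and 224 and 137 with Yrr1IE. It was the only 1 of the 24 called higher between these alleles in YPD, and 4 were lower, at a median of −0.24. The 24 include SNF1 itself, with 0 and 0 reads in YPD with Yrr1IE against 231 and 297 with Yrr1S. Of all loci 7.28% were higher there and 4.41% lower. In 4NQO 8 were higher and 1 lower with Yrr1S, 4 and 2 with Yrr1Y, and 6 and 1 with Yrr1IE, where 15.9% of all loci were higher and 15.3% lower with Yrr1S, 10.3% and 9.85% with Yrr1Y, and 12.9% and 13% with Yrr1IE. The counts with Yrr1Y were close to that background. ADR1 was higher by 1.91 ± 0.21, 1.61 ± 0.21 and 2.09 ± 0.24 with Yrr1S, Yrr1Y and Yrr1IE in that order.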

How the data were processed

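RNA was sequenced from 18 unstranded paired-end libraries, 2 for each of 9 conditions. The authors aligned reads with TopHat2 2.0.12 and deposited counts per locus on the R64 genome, made with Rsubread, and a table of FPKM values per locus, scaled for length and depth; DESeq2 1.8.1 was their test. Samples were grouped by title. Counts of 6713 loci were tested with edgeR 4.0.16 (R 4.3.3), with TMM scaling, the default filter on low counts (minimum 10, 5766 loci kept) and quasi-likelihood tests in 1 fit of all 18 libraries. P-values were adjusted by Benjamini-Hochberg within each comparison, and a locus with adjusted p under 0.05 was called, which is what rose, fell, higher and lower mean for a member. The SE of a log2 fold change was taken as its absolute value divided by the square root of the F statistic of its test. It is not a fitted standard error, and it is too small for a large change that rests on few reads, as for CRC1 with Yrr1S. FPKM served only for levels between genes. No replicate pair agreed within sampling noise. The alternatives were DESeq2 1.42.0, its size factors, no filter, only the libraries of the comparison, and each library left out. The code was tested on simulated data.

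Genes are described by role, with values in every library for each member called anywhere and a range for the others, except that 2 members are included in the counts and not reported by name here. The members and lists were chosen with earlier results of these data known. Upstream sequences came from RefSeq R64, searched with Python 3.11.15.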

Additional observations from a re-analysis of the deposited data

Results flagged for a closer look

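The glycerol response differed between yeast expressing Yrr1IE and yeast expressing Yrr1S for 22 of the 45 genes by an interaction term in edgeR, and between Yrr1IE and Yrr1Y for 21. Of all loci 31.4% and 32.7% were called in these comparisons. The following values are the response with Yrr1IE minus that with Yrr1S on the log2 scale. Among the carnitine genes the differences were −4.70 for YAT1, −3.38 for YAT2, −2.58 for CAT2 and −2.37 for CRC1. The CRC1 value rests on 3 reads in the Yrr1S YPD libraries, and its call was lost without library S3, S4 or S6. The fitted CRC1 responses with Yrr1IE and Yrr1Y were 6.35 and 6.28. Among the uptake genes they were −4.07 for PXA1, −2.68 for PXA2, −2.51 for FAA2 and −1.90 for ANT1. In the beta-oxidation cycle they were −3.44 for POX1, −2.61 for FOX2 and −1.59 for POT1, the last lost without library S3 or S6. Of the auxiliary and redox enzymes, IDP3 differed by −3.06, ECI1 by −2.86, SPS19 by −2.03, DCI1 by −2.0 and TES1 by −1.99. Peroxins with a smaller response included PEX11 at −2.03, PEX21 at −1.51 and PEX25 at −0.82. The PEX21 call was lost without library S3, S5, S15 or S17. The PEX25 call was lost in DESeq2, in a fit of only its own libraries and without library S3, S4, S5, S6, S15, S16 or S17. Larger responses were found for PEX29 at 1.11 and the regulator OAF1 at 0.74, the latter lost without library S3, S6, S16 or S17. SNF1 counts were 0 to 2 in the 6 Yrr1IE libraries, and the allele and the missing reads cannot be told apart here.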

How the results depend on the processing

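No call reversed under any alternative. Over 234 calls of single genes, 936 recomputed values other than those leaving out a library kept their side of the threshold in 897 cases and lost it in 39, and 1108 that left out 1 library did so in 890 and 218. In a fit of only the libraries compared, the number of genes called was 2 for 4NQO over YPD with Yrr1Y, 1 for Yrr1IE over Yrr1S in YPD, and 1 for the 4NQO response of Yrr1IE against Yrr1Y. In DESeq2 it was 1 for Yrr1IE over Yrr1Y in YPD. These numbers include members called under the alternative alone. Leaving out 1 library gave 30 to 36 genes for glycerol with Yrr1S, 27 to 29 with Yrr1Y and 27 to 33 with Yrr1IE. For 4NQO it gave 6 to 9 with Yrr1S, 0 to 5 with Yrr1Y and 4 to 5 with Yrr1IE. For Yrr1IE over Yrr1S it gave 0 to 4 in YPD, 0 to 1 in 4NQO and 21 to 24 in glycerol, and for Yrr1IE over Yrr1Y 0 to 1, 0 to 1 and 22 to 25. For Yrr1Y over Yrr1S in glycerol it gave 0 to 2. The glycerol response differed for 18 to 22 genes against Yrr1S and 15 to 21 against Yrr1Y, and the 4NQO response of Yrr1IE against Yrr1Y for 0 to 1. The cause of these shifts was not tested. No paired analysis was possible because the labels give no replicate numbers shared between groups and do not tell which YPD and 4NQO libraries share a parent culture. With 2 libraries a group, and as few as 1 read per library for CRC1 and 3 for PEX14, small changes of low genes could not be resolved.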
